A study of Mus musculus with 6 samples.

Results

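The small intestine takes up vitamin A and its plant precursor beta-carotene and turns them into the forms that the body stores or uses. A total of 8 genes of this route were followed here across the cell classes of the mouse jejunal epithelium, chosen by name among the 32285 genes of the feature files, and all 8 were found there. They were *Scarb1*, *Bco1*, *Isx*, *Rbp2*, *Rbp7*, *Lrat*, *Retsat* and *Aldh1a1*. Another 37 genes of retinoid transport, conversion, breakdown and sensing were read as a wider list. The RNA of single cells had been measured in 6 libraries. These were the fractions labelled as crypts and as villi from 3 groups of wildtype C57BL/6J male mice, about 30 weeks old. LFD sham mice (3 pooled) ate a low-fat diet and had a sham operation, HFD sham mice (3 pooled) ate a high-fat diet and had a sham operation, and HFD VSG mice (2 pooled) ate the high-fat diet and had vertical sleeve gastrectomy (VSG), which removes most of the stomach. The diets ran for 16 weeks before surgery and tissue was taken 5 weeks after it, from mice fasted overnight. Both fractions of a group came from the same animals, and each group had 1 library per fraction, so the variation between mice was not measured and no test between groups was possible.

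Beta-carotene enters enterocytes by way of SCARB1, a scavenger receptor, and is cleaved by BCO1 into retinal. ISX, a homeodomain factor of the intestine, is induced by retinoic acid and represses *Scarb1* and *Bco1*, which closes a feedback loop on vitamin A uptake. RBP2 binds retinol and retinal inside enterocytes, and LRAT makes retinyl esters from the bound retinol for export in chylomicrons. RETSAT saturates a double bond of retinol, ALDH1A1 oxidizes retinal to retinoic acid, and RBP7 is another cellular retinol-binding protein.

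In the GRCm38 assembly, GENCODE vM21 places *Rbp2* at chr9:98486115-98509781 (+ strand), *Rbp7* at chr4:149449687-149454978 (−), *Scarb1* at chr5:125277087-125341094 (−) and *Bco1* at chr8:117095854-117133720 (+). It places *Isx* at chr8:74873173-74893506 (+), *Lrat* at chr3:82892579-82903973 (−), *Retsat* at chr6:72598475-72608425 (+) and *Aldh1a1* at chr19:20492715-20643465 (+). No other counted gene on the same strand overlapped any of the 8. *Aldh1a1* has a close paralog, *Aldh1a7*, so reads shared by both could have been lost from either count.

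The start regions of *Rbp2* and *Bco1*, the member with the highest level in enterocytes and one that was lower on the high-fat diet in both fractions, are shown because they share a run of 11 letters at nearly the same place. The 150 bases before the RefSeq start (GRCm38.p6) lie at chr9:98490387-98490536 (+) for *Rbp2* and at chr8:117095715-117095864 (+) for *Bco1*. The *Rbp2* window lies in an intron of the longer GENCODE gene model, and the last 11 bases of the *Bco1* window lie in its first GENCODE exon. Capitals mark TGACCTTTGAC, the longest run found in both windows, which begins 58 bases before the start of *Rbp2* and 56 bases before the start of *Bco1*.
Rbp2: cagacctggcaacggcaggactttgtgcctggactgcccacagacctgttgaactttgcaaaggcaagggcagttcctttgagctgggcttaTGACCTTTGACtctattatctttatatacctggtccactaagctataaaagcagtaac
Bco1: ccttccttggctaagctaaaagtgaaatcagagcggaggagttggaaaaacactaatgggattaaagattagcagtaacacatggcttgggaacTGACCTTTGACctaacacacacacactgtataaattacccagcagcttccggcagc
The run is most of the direct-repeat pattern that nuclear receptors such as HNF4A and heterodimers of RXR bind. It was chosen from these windows and searched on both strands from 250 bases before to 50 bases after each start. Of 32851 windows of all genes, 12 (0.0365%) held it. Of the 7 members with a window, *Rbp2* and *Bco1* held it, and *Isx*, *Lrat*, *Retsat*, *Rbp7* and *Aldh1a1* (2 starts) did not. A match describes the letters and says nothing on binding.

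Of 59457 barcodes called as cells, 24135 passed the filters and fell into 19 clusters, and the retinoid genes were left out of the genes used to cluster. The called barcodes of a library held 60522766 to 155522445 UMIs (unique molecular identifiers, each 1 captured molecule), 55.7% to 83.7% of its UMIs, and each pair of libraries shared 17 to 43 barcodes. Clusters named by lists of markers gave 13171 enterocyte-like cells, 1421 goblet-like, 1140 stem-like, 625 Paneth-like, 596 cycling progenitor-like, 223 tuft-like and 203 enteroendocrine cell (EEC)-like cells, with 1289 immune-like cells. Cluster 4 (1945 cells), whose leading genes were *Rbp7*, *Dmbt1* and *Cdkn3*, is called by its number because it carried markers of both early and cycling progenitors. The fraction labels went against the markers: stem-like, Paneth-like and cycling progenitor-like cells with cluster 4 made up 6.49% (LFD sham), 8.48% (HFD sham) and 12.3% (HFD VSG) of epithelial cells in the crypt-labelled libraries and 25.4%, 19.3% and 40.6% in the villus-labelled ones. The labels are therefore used below only as names of libraries. Levels are UMIs per 1000000 UMIs of a class in a library (CPM), which cannot tell more RNA per cell from a change in the cells a class holds. All intervals are exact 95% limits of counting error (Poisson for levels, conditional binomial for ratios) and do not cover differences between mice.

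*Rbp2*, *Retsat*, *Aldh1a1* and *Lrat* had their highest median level in enterocyte-like cells, and *Scarb1*, *Bco1*, *Rbp7* and *Isx* in other classes. *Rbp2* was at 7473 CPM in the crypt-labelled and 5871 in the villus-labelled LFD sham library, at 11819 and 11420 in the HFD sham libraries, and at 13233 and 8487 in the HFD VSG libraries. The enterocyte-like range did not overlap that of cluster 4, the next class, at 916 to 4505 CPM. In immune-like cells, which do not make RBP2, it still reached 348 to 3371 CPM in the 5 libraries with at least 20 such cells. Stem-like cells, at 101 to 547 CPM, and Paneth-like cells, at 45.2 to 670 CPM, overlapped that level, which free RNA in the droplets can give. *Retsat* was at 206 to 280 CPM in enterocyte-like cells and 141 to 212 in cluster 4, so both ranges overlapped, and at 7.61 to 20.3 in Paneth-like cells. *Aldh1a1* was at 307 to 830 CPM in enterocyte-like cells and 39.4 to 347 in cluster 4, also with overlap. *Lrat* was far lower, at 13.3 to 33.2 CPM, was highest in enterocyte-like cells in 6 of 6 libraries, and overlapped cycling progenitor-like cells at 11.7 to 26.4 CPM.

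**Figure D1:**
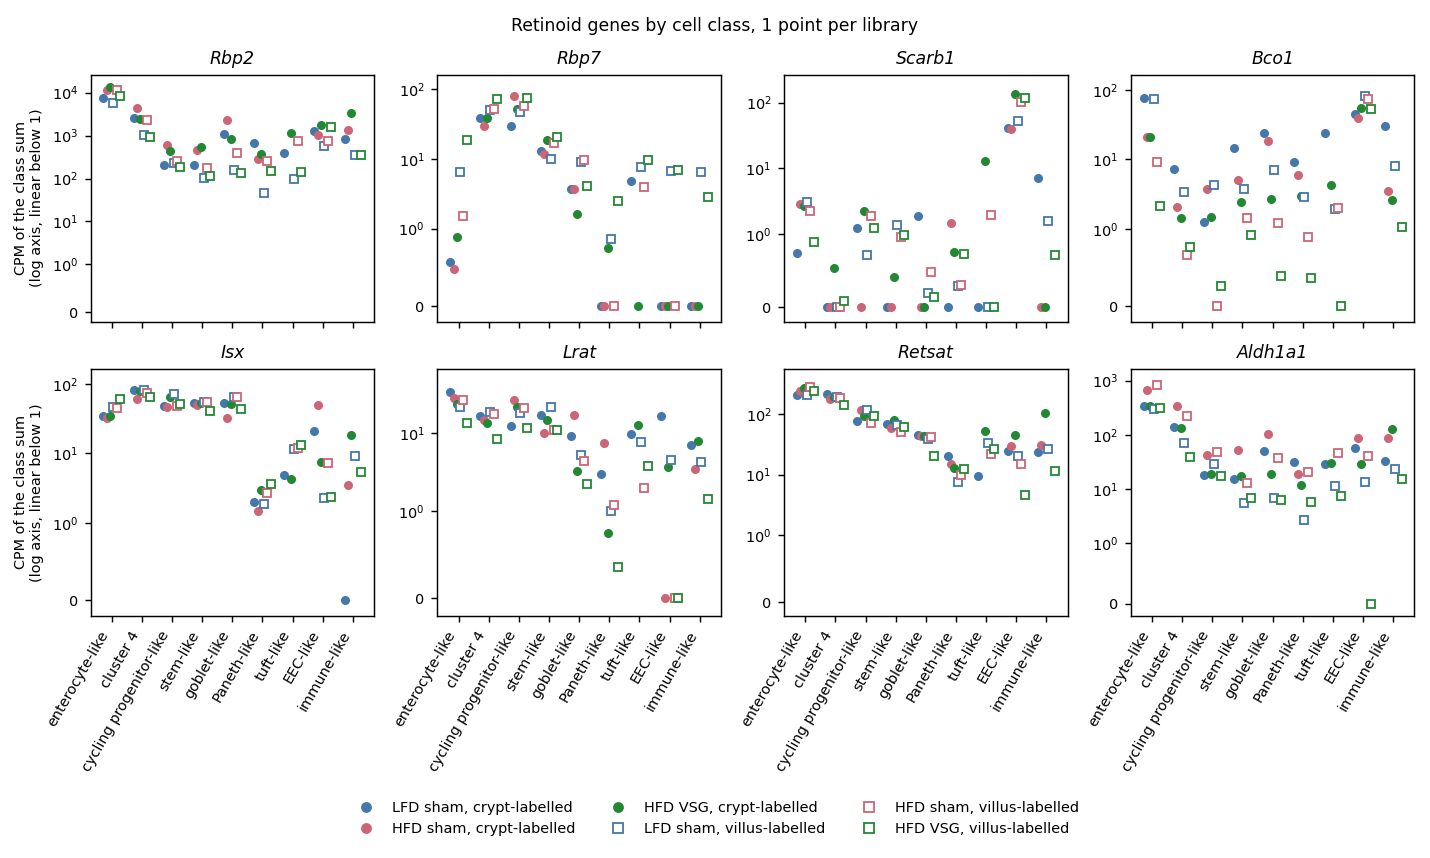
Level of each of the 8 genes (CPM of the class sum, log axis that is linear below 1) by cell class, with 1 point per library of at least 20 cells of that class. *Scarb1* is highest in EEC-like cells in all 6 libraries, *Rbp7* in cluster 4 or the cycling progenitor-like cells, and *Rbp2* in enterocyte-like cells.

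*Scarb1*, the receptor at the entry of the route, was highest in EEC-like cells, the hormone-secreting cells of the epithelium, in 6 of 6 libraries. Its EEC-like levels were 41.5 CPM (interval 19.9 to 76.3) in the crypt-labelled and 51.8 (32.8 to 77.7) in the villus-labelled LFD sham library. They were 39.7 (10.8 to 102) and 103 (68.7 to 149) in the HFD sham libraries and 133 (93.4 to 185) and 119 (88.5 to 156) in the HFD VSG libraries. Enterocyte-like cells held 0.739 to 3.04 CPM, so the ranges of both classes lay apart. Cells with at least 2000 UMIs were also thinned to that number, and shallower cells were left out. Of the thinned cells, 6.25% to 17.8% of EEC-like and 0.189% to 1.33% of enterocyte-like ones held a *Scarb1* UMI. The share was 0% to 0.820% for thinned immune-like cells. Without thinning, and with all cells, it was 13.6% to 70.4% for EEC-like and 0.961% to 3.65% for enterocyte-like cells. EEC-like cells were few (22 to 46 per library). Every one of them held UMIs of the EEC markers, 6523 to 47757 UMIs per library in all, but these markers also named the cluster. Their *Scarb1* UMIs ran from 4, in 3 cells, in the crypt-labelled HFD sham library to 51, in 19 cells, in the villus-labelled HFD VSG one.

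UMIs of *Bco1*, the cleavage enzyme, were also counted in EEC-like cells in every library, though not above free RNA in each. *Bco1* stood there at 45.7 (22.8 to 81.7) and 81.0 (56.7 to 112) CPM in the crypt- and villus-labelled LFD sham libraries. It stood at 39.7 (10.8 to 102) and 73.8 (45.1 to 114) in the HFD sham libraries and at 55.6 (31.1 to 91.7) and 53.6 (34.0 to 80.4) in the HFD VSG libraries. All 6 intervals overlapped, so no difference between groups in EEC-like cells was detectable at this depth (4 to 36 UMIs per library). Enterocyte-like cells spanned 2.16 to 76.3 CPM, and EEC-like cells had the higher level in 5 of 6 libraries, all but the crypt-labelled LFD sham one. In 2 of these 5, the villus-labelled LFD sham and the crypt-labelled HFD sham library, the EEC-like interval held the enterocyte-like level (73.1 and 20.7 CPM), so the difference was within counting error. In the crypt-labelled LFD sham library immune-like cells held 30.4 CPM, inside the EEC-like interval, against 1.07 to 7.98 in the other 4 with enough cells. Droplets with under 100 UMIs, which hold free RNA, had 86.6 CPM in that library, above the EEC-like level. They had 27.8 CPM in the crypt-labelled HFD sham library, inside the EEC-like interval, and 1.75 to 53.9 in the other 4, below it. After subtraction of free RNA with the fraction stated by the study for each library, the EEC-like level stayed at 41.7 to 83.6 CPM. Immune-like cells of the crypt-labelled LFD sham library held 0.351 of its free RNA level, so that subtraction may leave carried-over RNA. Whether EEC-like cells made *Bco1* in the crypt-labelled LFD sham and HFD sham libraries was not settled.

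Of the wider list, 4 genes reached over 100 CPM in EEC-like or tuft-like cells. *Rbp4*, the retinol carrier of blood, was at 89.2 to 979 CPM in EEC-like cells of the 6 libraries and at most 0.732 CPM in enterocyte-like cells. *Stra6l*, a receptor for RBP4 also known as *Rbpr2*, was at 39.7 to 122 CPM in EEC-like cells and 55.1 to 140 in tuft-like cells, which overlapped. *Adh1*, an alcohol dehydrogenase that can oxidize retinol, was at 1347 to 2133 CPM in tuft-like cells, the chemosensory cells of the epithelium, and at 395 to 984 in enterocyte-like cells. *Ttr*, the partner of RBP4 in blood, was at 55.6 to 188 CPM in EEC-like cells and 63.6 to 177 in goblet-like cells. Droplets with under 100 UMIs, which hold free RNA, had at most 6.38 CPM of *Rbp4*, 5.55 of *Stra6l*, 27.1 of *Ttr* and 528 of *Adh1*.

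*Rbp7* was highest in cluster 4 or in cycling progenitor-like cells, and *Isx* in cluster 4 in 6 of 6 libraries. *Rbp7* was at 38.1 and 49.6 CPM in cluster 4 of the crypt- and villus-labelled LFD sham libraries, 29.8 and 51.9 in the HFD sham ones and 38.7 and 71.4 in the HFD VSG ones. Cycling progenitor-like cells held 29.8 to 81.0 CPM, which overlapped cluster 4, while stem-like cells held 10.0 to 20.8, below both in all 6 libraries. Enterocyte-like cells held 0.474 to 18.5 CPM. *Isx* was at 59.5 to 82.1 CPM in cluster 4, at 41.2 to 54.9 in stem-like cells, at 47.1 to 72.4 in cycling progenitor-like cells and at 32.1 to 61.2 in enterocyte-like cells. It was also at 31.8 to 65.1 CPM in goblet-like cells. Paneth-like cells held 1.5 to 3.6 and tuft-like cells 4.29 to 13.3 CPM, both below all of these classes. EEC-like cells held 2.25 to 49.6 and immune-like cells 0 to 18.4 CPM.

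Position along the villus was read from the share of each cell's UMIs in 10 villus-tip genes, among them *Ada*, *Nt5e* and *Krt20*, with the enterocyte-like cells of each library split by rank into 3 groups of equal size, called tip-low, tip-middle and tip-high. Between 22.1% and 36.0% of cells lay within 10% of a limit between them, so they are ranges and not cell types. Depth was lower in tip-high than in tip-low cells in every library. Medians were 15634 to 34869 UMIs per tip-low cell and 5407 to 33338 per tip-high cell, which was 1.05 to 3.14 times lower. In the villus-labelled LFD sham and HFD VSG libraries the tip-middle cells were the deepest. The part of depth in the patterns was not tested. *Bco1* had the steepest pattern by the median over libraries (log2 3.30 from tip-low to tip-high). It was at 27.1, 57.1 and 250 CPM in the tip-low, tip-middle and tip-high cells of the crypt-labelled LFD sham library and at 17.1, 40.6 and 224 in the villus-labelled one. In the HFD sham libraries it was at 6.12, 17.3 and 64.2 and at 3.10, 7.82 and 19.3 CPM. In the HFD VSG libraries it was at 8.45, 12.9 and 49.0 and at 0.406, 0.408 and 5.99 CPM, with 8 UMIs in each of the lower groups of the last library. The tip-high cells were above the tip-low cells by 2.54 to 3.88 (log2) in the 6 libraries, and *Bco1* was the one member of 8 past 0.5 (log2) in the same direction in 6 of 6, as were 2.91% of the 10117 genes with enough UMIs. In the other direction 0 of 8 members were past 0.5 in 6 of 6 libraries, against 1.68% of the genes.

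*Scarb1* was higher in tip-high cells in 6 of 6 libraries (log2 0.50 to 4.08), on 5 to 52 UMIs a group, with an interval that held 0 in the crypt-labelled HFD VSG library. *Isx*, which represses both genes, ran the other way and was lower in tip-high cells in 6 of 6 libraries (log2 −1.20 to −0.07), with an interval that held 0 in the villus-labelled HFD sham library. *Lrat* was higher by 0.07 to 0.56, and the interval held 0 in 4 of the 6. *Retsat* and *Aldh1a1* were lower in tip-high cells in 5 of 6 libraries, down to −1.67 and −2.35. *Rbp2* was lower in the same 5, down to −0.76. The exception for all 3 genes was the villus-labelled HFD VSG library, at 0.11 for *Retsat*, 0.82 for *Aldh1a1* and 0.95 for *Rbp2*. By sign alone, *Scarb1*, *Bco1* and *Lrat* were thus higher in 6 of 6 libraries and *Isx* lower. At most 10% mitochondrial UMIs kept 325 to 1083 enterocyte-like cells per library. By sign alone, 1 member in place of 3 was then higher in 6 of 6 libraries and none was lower. *Scarb1* had only 2 to 15 UMIs per library there.

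**Figure D2:**
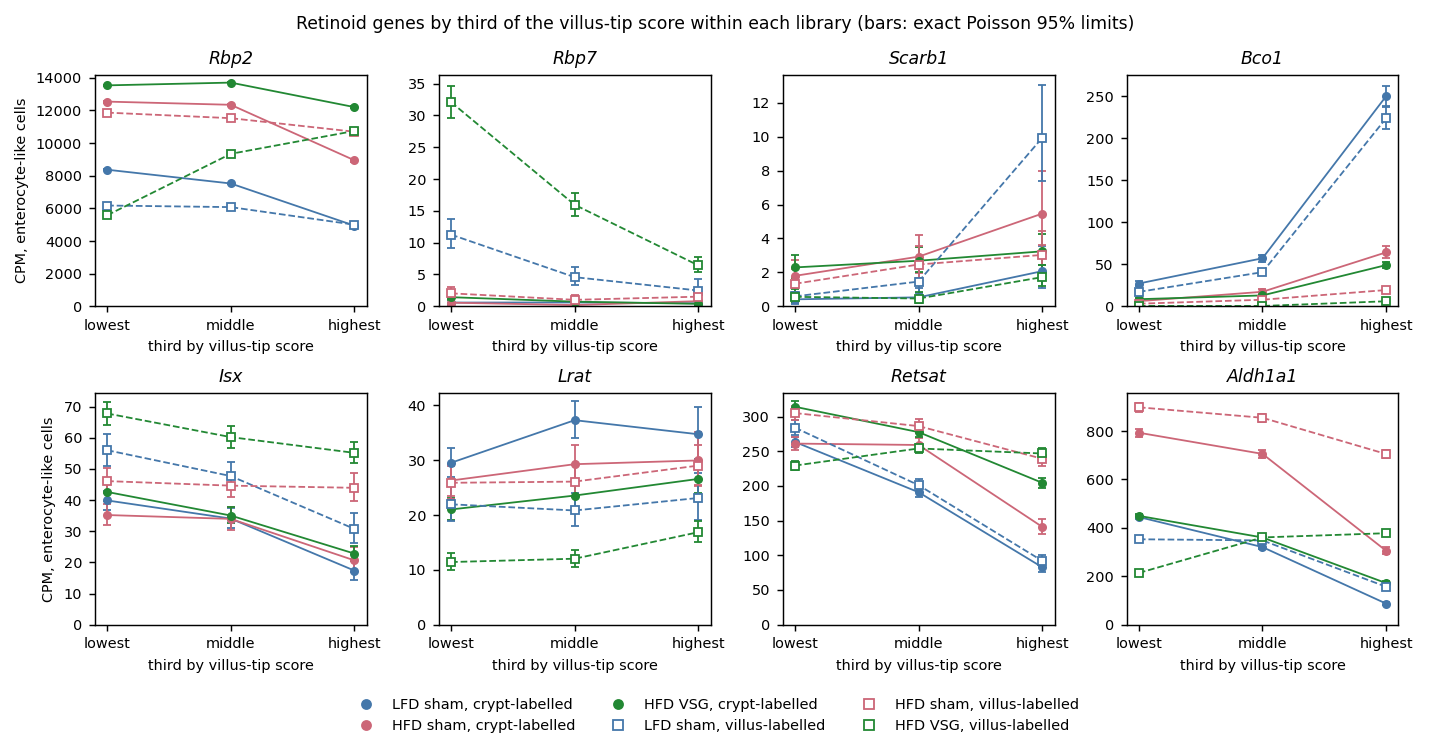
Level of each gene (CPM) in tip-low, tip-middle and tip-high enterocyte-like cells, by villus-tip score within each library; lines join the groups of a library and bars are exact Poisson 95% limits. *Bco1* is highest in tip-high cells in all 6 libraries, and the HFD libraries lie below the LFD libraries in each group.

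The diet comparison, HFD sham against LFD sham, asked what a high-fat diet changed in enterocyte-like cells. *Bco1* was lower on the high-fat diet in both fractions, while *Rbp2* and *Aldh1a1* were higher in both. Among members averaging 50 UMIs or more over the libraries of a fraction, 3 of 7 were higher by over 0.5 (log2) and 1 of 7 lower in the crypt-labelled libraries, against 5.53% and 6.77% of all 9948 such genes. In the villus-labelled libraries 2 of 8 were higher and 2 of 8 lower, against 4.55% and 9.3% of 10156 genes. The median over the members was 0.21 and 0.12 (log2), and that of all genes 0.00 and −0.02.

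*Bco1* was at 76.3 CPM (interval 73.5 to 79.2) in the crypt-labelled and 73.1 (69.7 to 76.6) in the villus-labelled LFD sham library and at 20.7 (19.1 to 22.5) and 9.26 (8.23 to 10.4) in the HFD sham libraries. The level on the high-fat diet was 3.68-fold lower (log2 −1.88, −2.01 to −1.75) and 7.89-fold lower (−2.98, −3.16 to −2.80). The difference was present in the tip-low, tip-middle and tip-high cells (log2 −2.15 to −1.73 in the crypt-labelled and −3.53 to −2.38 in the villus-labelled libraries). It was below 0 in 7 of 7 enterocyte-like clusters with enough cells and UMIs in both fractions. With at most 10% mitochondrial UMIs the villus-labelled ratio was −2.13. Droplets with under 100 UMIs, which hold free RNA, showed the same order, at 86.6 and 53.9 CPM on the low-fat diet and 27.8 and 8.51 on the high-fat diet.

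*Aldh1a1* was at 338 and 307 CPM in the crypt- and villus-labelled LFD sham libraries and at 673 and 830 in the HFD sham libraries, 1.99-fold and 2.70-fold higher. It was past 0.5 (log2) in all 7 enterocyte-like clusters with enough cells in both fractions, and cluster 4 showed it as well (140 to 347 and 72.3 to 222 CPM). *Rbp2* was 1.58-fold and 1.95-fold higher (log2 0.66 and 0.96). In the clusters its ratio ranged from 0.44 to 1.17 (log2) in the crypt-labelled and 0.68 to 1.27 in the villus-labelled libraries.

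Summed over all enterocyte-like cells, *Isx* was at 33.9 and 46.9 CPM on the low-fat diet and at 32.1 and 45.0 on the high-fat diet (log2 −0.08, −0.20 to 0.05, and −0.06, −0.18 to 0.05). In the villus-labelled libraries the tip-low cells gave −0.28 (−0.46 to −0.10) and the tip-high cells 0.51 (0.24 to 0.79), and 2 of 6 clusters were above 0.5. The crypt-labelled libraries gave −0.18 (−0.36 to −0.00) and 0.25 (−0.15 to 0.65), and 0 of 7 clusters. *Retsat* was higher by 0.21 and 0.44 (log2), and *Lrat* differed by −0.24 and 0.30, so neither passed 0.5 in a fraction. Within the tip-high cells, *Retsat* was higher by 0.77 (0.60 to 0.93) and 1.38 (1.23 to 1.52), against −0.01 and 0.10 in the tip-low cells, and it was above 0.5 in 3 of 7 and 4 of 7 clusters. *Lrat* was within 0.5 in all 3 tip groups of both fractions, and in the clusters ran from −1.85 to 0.13 and from −1.11 to 0.96. *Retsat* reached 0.52 to 0.69 in the villus-labelled libraries under 3 alternatives. *Scarb1*, at 0.739 and 2.88 CPM in the crypt-labelled libraries (27 and 79 UMIs), was higher by 1.96 there, but by −0.02 with at most 10% mitochondrial UMIs, on 2 and 4 UMIs, and by −0.46 (−0.96 to 0.04) in the villus-labelled libraries. *Rbp7* was lower by 2.11 (−2.61 to −1.63) in the villus-labelled libraries, at 6.55 CPM on the low-fat and 1.52 on the high-fat diet. Droplets with under 100 UMIs held 11.7 and 11.2 CPM of it there, and free RNA subtracted at the stated fractions left 6.30 and 0 CPM, so the level on the high-fat diet did not exceed free RNA at that fraction. In the crypt-labelled libraries it had 21 UMIs on the low-fat and 13 on the high-fat diet and was not counted. The summed level of 9 early progenitor markers moved with *Rbp7* in the villus-labelled libraries, from 1713 to 1238 CPM, and its part in that difference was not tested. Over the alternatives the *Rbp7* ratio there ran from −5.81 to −0.91. The first came with that subtraction and 3 UMIs in place of 0, the last with 6 of the 8 enterocyte-like clusters weighted alike.

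**Figure D3:**
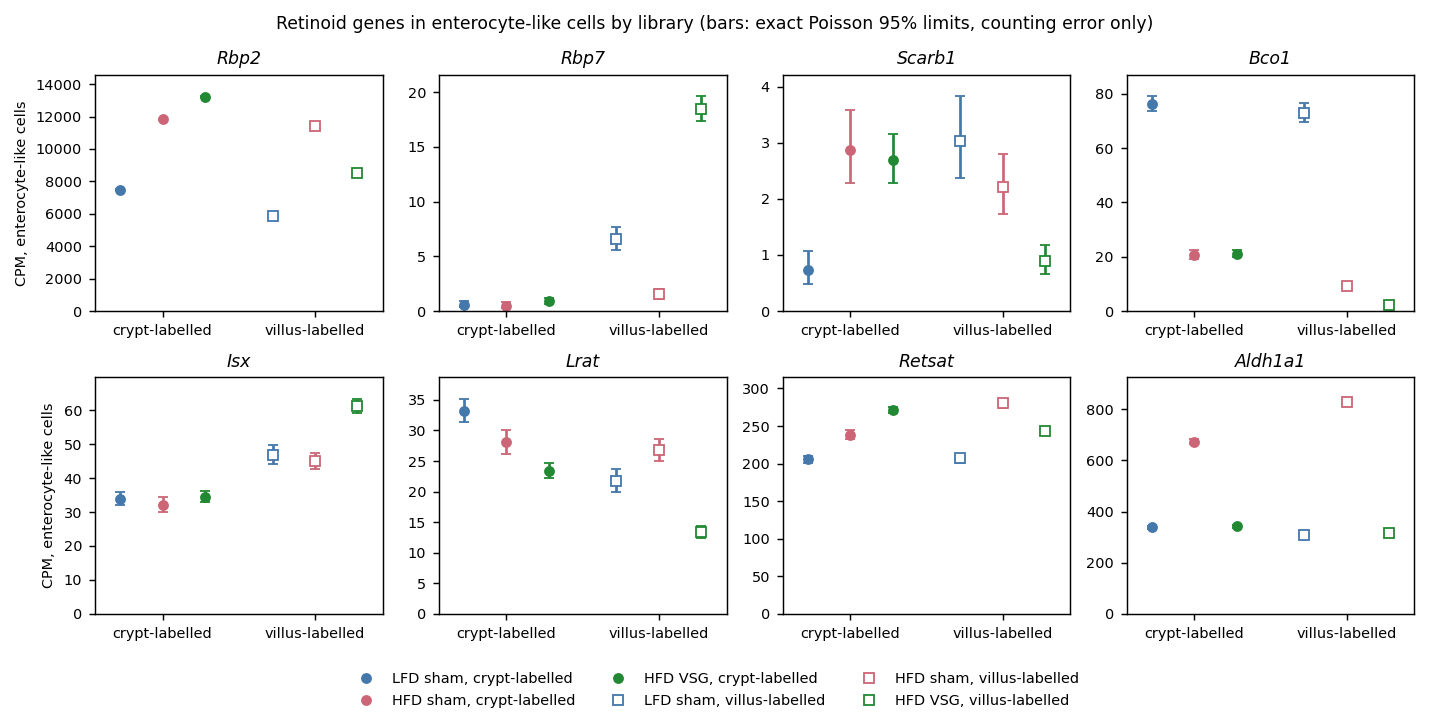
Level of each gene (CPM, axes from 0) in enterocyte-like cells of the 6 libraries, crypt-labelled on the left and villus-labelled on the right of each panel; bars are exact Poisson 95% limits of counting error. *Bco1* is lower in the 4 HFD libraries than in the 2 LFD libraries, and *Aldh1a1* is higher in the 2 HFD sham libraries than in the other 4.

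The surgery comparison, HFD VSG against HFD sham, asked what the operation changed on the same diet, and it shares the HFD sham libraries with the diet comparison, so an error in these would appear in both with opposite sign. The free RNA fractions that the study states for each library were also higher for both HFD sham libraries than for the other 4. With free RNA subtracted at these fractions, the *Aldh1a1* ratios were 1.21 and 1.54 (log2) for diet and −1.20 and −1.53 for surgery, and those of *Bco1* −2.09 and −2.99 for diet and 0.25 and −2.10 for surgery. *Aldh1a1* was the one member past 0.5 (log2) in both fractions. It was at 342 and 316 CPM in the crypt- and villus-labelled HFD VSG libraries against 673 and 830 in the HFD sham libraries, 1.97-fold lower (log2 −0.98) and 2.63-fold lower (−1.39, −1.42 to −1.37). Summed over enterocyte-like cells, the HFD VSG levels lay beside the LFD sham levels of 338 and 307 CPM. Tip groups, which follow, were not matched by score between libraries. In the villus-labelled libraries HFD VSG was at 214 against 353 CPM in LFD sham in tip-low cells. It was at 360 against 348 in tip-middle and 378 against 157 in tip-high cells. In the crypt-labelled ones the tip-low and tip-high cells were at 450 against 445 and 172 against 87.1. *Aldh1a1* was below 0 in 7 of 7 and 6 of 6 enterocyte-like clusters and in tip-low, tip-middle and tip-high cells, and in cluster 4 it was lower by 1.35 and 2.49 (log2).

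In the crypt-labelled libraries 0 of 7 members were higher and 1 of 7 lower by over 0.5, against 6.04% and 2.39% of all genes with enough UMIs. In the villus-labelled libraries 1 of 8 was higher and 4 of 8 lower, against 23.4% and 19.9%. The median of the members was 0.02 and −0.72 (log2), and that of all genes 0.10 and −0.00. *Bco1* was at 21.1 CPM after surgery against 20.7 in the crypt-labelled libraries (log2 0.02, −0.12 to 0.17). Within the clusters it was lower there by over 0.5 in 6 of 7, and with 6 of the 8 enterocyte-like clusters weighted alike the ratio was −0.67. With at most 10% mitochondrial UMIs it was −1.79. The tip-low cells gave 0.47, the tip-middle cells −0.42 and the tip-high cells −0.39. In the villus-labelled libraries *Bco1* was at 2.16 CPM (1.80 to 2.58) against 9.26, 4.28-fold lower, and 1 cell held 24.2% of its 124 UMIs. The ratio there was −1.34 with the same 6 clusters weighted alike and −3.58 with at most 10% mitochondrial UMIs. In neither fraction was it near the LFD sham levels of 76.3 and 73.1 CPM.

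*Lrat* was 2.01-fold lower in the villus-labelled libraries (13.3 against 26.8 CPM, log2 −1.01, −1.15 to −0.86) and lower by 0.26 in the crypt-labelled ones. *Scarb1* was 2.49-fold lower in the villus-labelled libraries, on 51 and 70 UMIs, and differed by −0.10 (−0.50 to 0.31) in the crypt-labelled ones. With at most 10% mitochondrial UMIs the crypt-labelled *Lrat* ratio was −1.08, while *Scarb1* had 3 UMIs in HFD VSG and 4 in HFD sham there, too few to be counted. *Rbp7* was higher in the villus-labelled libraries, at 18.5 CPM (17.4 to 19.7) against 1.52 (1.12 to 2.01), or 3.61 (log2). The HFD sham level was the one that did not exceed free RNA, so the size of the ratio is uncertain. It ran from 1.96, with 6 of the 8 clusters weighted alike, to 7.35. The latter had free RNA subtracted at the stated fractions and 3 UMIs in place of 0 for HFD sham. Droplets with under 100 UMIs held 28.2 CPM in the villus-labelled HFD VSG library, where that subtraction left 18.3 CPM. *Isx* was higher there by 0.45 (0.36 to 0.54), and by 0.10 (−0.01 to 0.22) in the crypt-labelled libraries. *Rbp2* and *Retsat* were each above HFD sham in the crypt-labelled libraries (0.16 and 0.18) and below it in the villus-labelled ones (−0.43 and −0.20). By tip group, not matched by score between libraries, the villus-labelled *Rbp2* ratio was −1.09 (tip-low), −0.30 (tip-middle) and 0.01 (tip-high). In the clusters it ran from −0.86 to 0.43, and 3 of 6 were below −0.5.

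The villus-labelled HFD VSG library stood apart in other measures. Its enterocyte-like cells had a median of 34665 UMIs against 13609 to 17529 in the other 5 libraries, and 68.4% of them had at most 10% mitochondrial UMIs against 10.8% to 25.1%. The summed level of 14 enterocyte markers was 57109 CPM there against 74578 to 103186 elsewhere, that of 10 villus-tip genes 772 against 1386 to 2925, and that of 9 early progenitor markers 3154 against 634 to 1713. The 5 genes of the proximal small intestine summed to 72.3 CPM (62.8 to 89.6 elsewhere) and the 5 of the distal part to 596 (484 to 594 elsewhere). The part of these differences in the ratios of *Rbp7*, *Bco1*, *Lrat* and *Scarb1* was not tested. A further measure set both HFD VSG libraries apart, the summed level of 4 genes of damaged droplets in enterocyte-like cells. It was 59700 and 59763 CPM in the crypt- and villus-labelled LFD sham libraries and 50042 and 35384 in the HFD sham ones. In the HFD VSG ones it was 14312 and 9029, and its part in the diet and surgery ratios was not tested.

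**Figure D4:**
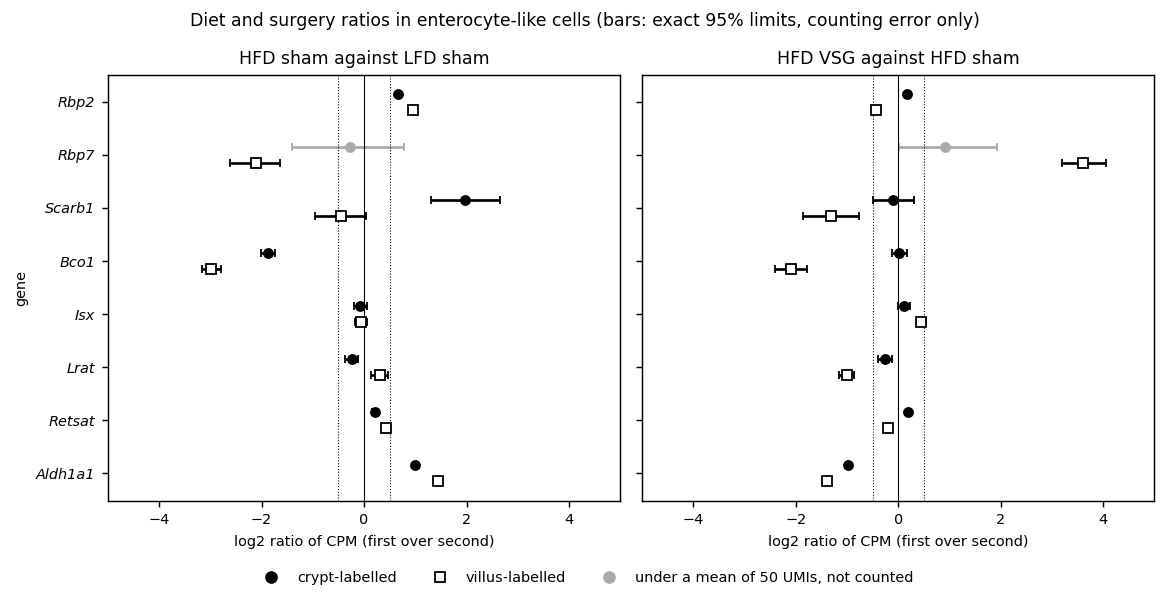
Log2 ratio of CPM in enterocyte-like cells for HFD sham against LFD sham (left) and HFD VSG against HFD sham (right), with filled circles for crypt-labelled and open squares for villus-labelled libraries, exact 95% limits of counting error and dotted lines at 0.5 either way; grey points had too few UMIs to be counted. *Aldh1a1* lies above 0 for diet and below 0 for surgery in both fractions, and *Bco1* lies below 0 for diet in both.

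Among the enterocyte-like clusters, *Bco1* was highest in cluster 2, whose leading genes were *Pmp22*, *Aldh4a1* and *Bco1* itself, and in cluster 10, led by *Ly6m*, *Ada* and *Slc28a2*. These 3 genes of cluster 10, and *Enpp3* among the leading genes of cluster 2, are villus-tip genes of the score. The order of the clusters is therefore not separate from the pattern along the score. On the low-fat diet it was at 250 and 321 CPM in cluster 2 of the crypt- and villus-labelled libraries and at 198 and 447 in cluster 10. In the HFD sham libraries these were 75.0 and 35.6 CPM in cluster 2 and 40.9 and 67.8 in cluster 10. *Aldh1a1* and *Retsat* had the reverse order and were lowest in cluster 10 (13.5 to 90.1 and 27.1 to 92.8 CPM) and highest by median in cluster 1 (367 to 1054 and 281 to 357 CPM). *Rbp2* was at 3542 to 8054 CPM in cluster 10 and at 8133 to 16422 in cluster 3, and both ranges lay apart.

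**Figure D5:**
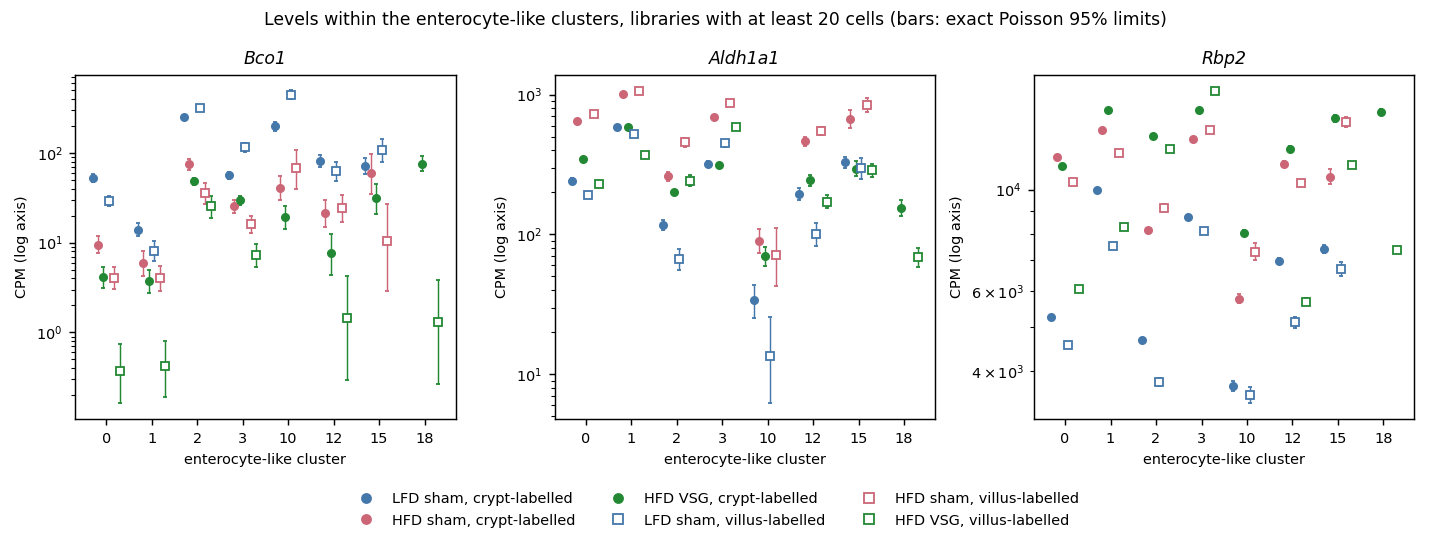
Levels of *Bco1*, *Aldh1a1* and *Rbp2* (CPM, log axes) in each enterocyte-like cluster for libraries with at least 20 cells of that cluster, with exact Poisson 95% limits; sums of 0 are not drawn. Within clusters 2 and 10 the LFD sham points of *Bco1* lie above the points of the other libraries.

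Between the labelled fractions of a group, *Rbp7* was higher in the villus-labelled library by 3.51 (log2), 1.68 and 4.37 in LFD sham, HFD sham and HFD VSG, but on 48 and 13 UMIs in HFD sham, too few to be counted there. No other member was past 0.5 in the same direction in all 3 groups. In the LFD sham libraries 1 of 7 was higher (*Rbp7*) and 1 lower (*Lrat*) in the villus-labelled library, against 18.1% and 6.58% of all genes with enough UMIs. In the HFD sham libraries 0 of 7 were higher and 1 lower (*Bco1*, log2 −1.16), against 10.7% and 3.7%. In the HFD VSG libraries 2 of 8 were higher (*Rbp7* and *Isx*) and 4 lower (*Rbp2*, *Scarb1*, *Bco1* and *Lrat*), against 26.6% and 24.3%. *Bco1* differed by −0.06 (−0.15 to 0.03) between the LFD sham fractions and by −3.29 (−3.56 to −3.02) between the HFD VSG fractions.

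Of the 37 genes of the wider list, 20 had enough UMIs in enterocyte-like cells for the diet and surgery comparisons. The alcohol dehydrogenases *Adh1*, *Adh4* and *Adh7*, which can oxidize retinol to retinal, were past 0.5 (log2) in both fractions of both comparisons, higher on the high-fat diet and lower after surgery. *Adh1* was at 442 and 395 CPM in the crypt- and villus-labelled LFD sham libraries, 824 and 984 in the HFD sham ones and 559 and 434 in the HFD VSG ones. Its ratios were 0.90 and 1.32 for diet and −0.56 and −1.18 for surgery. *Adh4* had ratios of 1.46 and 1.34 for diet and −0.77 and −0.94 for surgery, and *Adh7*, at 2.85 to 9.80 CPM, had 1.12 and 1.04, then −0.61 and −0.80.

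In all, 3 of 20 were higher and 0 lower on the high-fat diet in the crypt-labelled libraries (5.53% and 6.77% of all genes), and 6 were higher and 1 lower in the villus-labelled ones (4.55% and 9.3%). After surgery 1 was higher and 4 lower in the crypt-labelled (6.04% and 2.39% of all genes) and 1 higher and 9 lower in the villus-labelled libraries (23.4% and 19.9%). *Dgat1*, which can also esterify retinol, was at 602 to 712 CPM in the 6 libraries. *Rdh7*, a retinol dehydrogenase, was at 215 to 386 CPM and was higher on the high-fat diet by 0.84 (log2) in the villus-labelled libraries. *Cd36*, a fatty acid transporter that also takes up carotenoids, was at 50.4 to 197 CPM. *Plb1*, a brush-border enzyme with retinyl ester hydrolase activity, was at 35.9 to 146 CPM. *Rdh16*, another retinol dehydrogenase, differed after surgery by −0.57 and −2.25. *Dhrs4*, a short-chain dehydrogenase, was higher in stem-like (326 to 377 CPM) than in enterocyte-like cells (152 to 281 CPM).

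The genes whose levels followed each member most closely were found over 46 sums of a named class and library, by Pearson's r of log2(CPM + 1) among 6241 genes. The sums share libraries and depth, so r is a description. *Rbp2* was closest to *Nat8*, *Adh6a* and *Cyp2d26* (r = 0.95, 0.94 and 0.94) and *Retsat* to *Prap1*, *Marc2* and *Chp2* (0.96, 0.94 and 0.93). *Aldh1a1* was closest to *Enpep*, *Cndp2* and *Cyp4f14* (0.95, 0.93 and 0.92). *Scarb1* was closest to *Pyy* (peptide YY, an EEC hormone), *Ffar1* (a fatty acid receptor) and *Celf3* (0.90, 0.89 and 0.89). *Rbp7* was closest to *Fgfbp1*, *Tk1* and *Timm50* (0.90, 0.89 and 0.87), of which *Tk1* encodes the thymidine kinase of dividing cells. *Bco1* was closest to *Cyp4b1*, *Plekha1* and *C530008M17Rik* (0.86, 0.84 and 0.83), *Isx* to *Krt19*, *Txn1* and *Ahcy* (0.93, 0.88 and 0.88), and *Lrat* to *Ccl25*, *Vipr1* and *Slc4a4* (0.84, 0.84 and 0.84).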

How the data were processed

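The authors aligned the reads (10x Genomics 3′ v3.1 chemistry) to mm10 with Cell Ranger 6.0.0, per the submitters' processing notes, and deposited whole-number UMI counts per gene and barcode, not normalized and with free RNA and doublets still in them. Called barcodes had equal counts in the matrices of all and of called barcodes. Intervals cover counting error only, and p-values were not computed.

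Barcodes with under 750 genes or over 20% mitochondrial UMIs were left out, as were likely doublets, the barcodes nearest to simulated ones (2 per barcode, 30 components), with a share removed that grew with the barcodes called. That step was tested on simulated data. Libraries were integrated in Seurat 5.3.0 (sctransform 0.4.2, R 4.3.3) with 2000 genes, none of them on the retinoid lists, and clustered at resolution 0.4. A cluster took a class when over 50% of its markers were detected in 10% or more of its cells at 2 times the level of the cluster at the 25th percentile, and no fewer than 3 were. Clusters led by genes of damaged droplets, or with more markers of another class among their 10 leading genes, stayed unnamed. The percentile was set after the data were seen. Clusters 4, 5 and 6 stayed unnamed. Clusters 5 (1920 cells) and 6 (1602) met the enterocyte rule with 14 of 14 markers but were led by genes of damaged droplets. Together they held 356 to 894 cells per library. They are not in the enterocyte-like class but count among epithelial cells in the shares above. The part of their absence in the ratios was not tested. Cell types were rebuilt here, so class sizes may differ from the study's. The members and lists were chosen with earlier results of these data known.

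UMIs were summed by class and library (at least 20 cells) and scaled to CPM. A ratio was counted when the gene had a mean of at least 50 UMIs over the libraries of the fraction (or the 2 libraries compared) and was called past the fold beyond 0.5 (log2), with sums under 3 set to 3. The text names all 8 members, genes of the wider list past 0.5 in the same direction in both fractions or over 100 CPM in a named class, and the 3 genes most like each member. Of 46 listed retinoid genes 45 were found (not *Rbp5*). The 12 alternatives are given in the closing section. Python 3.11.15 was used with matplotlib 3.10.9, scikit-learn 1.9.0, pandas 2.3.3, scipy 1.17.1 and numpy 2.4.6. Promoter windows are those of RefSeq (GRCm38.p6).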

Additional observations from a re-analysis of the deposited data

Results flagged for a closer look

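Between the crypt-labelled and the villus-labelled libraries, 3 ratios of enterocyte-like cells had opposite signs, each with a counting interval away from 0. *Lrat* on the high-fat diet stood at −0.24 (log2) in the crypt-labelled and 0.30 in the villus-labelled libraries. *Rbp2* after surgery stood at 0.16 and −0.43. *Retsat* after surgery stood at 0.18 and −0.20. None of these sums over all enterocyte-like cells was past 0.5, though *Rbp2* after surgery was in villus-labelled tip-low cells (−1.09). The difference between the fractions was not tested, since each rests on 1 library a group. With at most 10% mitochondrial UMIs the signs were no longer opposite for *Lrat*, at 0.36 and 0.47, and for *Rbp2*, at −0.14 and −0.47.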

How the results depend on the processing

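Across 12 alternatives, 307 counts and levels moved by less than 1.5 times and 56 by more; of 320 single ratios, which 10 of the alternatives could change, 209 stayed within their counting interval, 105 moved out of it and 6 changed sign with a value past 0.5 (22 changed sign in all). Of the 32 ratios with at most 10% mitochondrial UMIs, 23 moved and 2 more changed sign in this way. Clustering at resolution 0.8 moved no count by more than 1.5 times. No paired analysis was possible because diet and surgery each compare 1 library with 1 and the labels give no replicate numbers; the fractions of a group, which share animals, were compared within each group, and a fit over all 3 with the group as block was not run. The cause was not tested unless the setting itself gives it. Shares of all genes are given above for the main setting only. The counts below at other settings therefore describe the setting and are not read as results about the members. *Bco1* after surgery in the crypt-labelled libraries changed sign to −1.79 with at most 10% mitochondrial UMIs. It changed to −0.67 with 6 of the 8 enterocyte-like clusters weighted alike (clusters alike, below). *Rbp7* there became −0.95 with clusters alike and −0.24 with a free RNA fraction of 0.1, its diet ratio 1.19 with clusters alike, and *Scarb1* on diet −0.017 with at most 10% mitochondrial UMIs. *Rbp2* after surgery passed 0.5 in the villus-labelled libraries (−0.55) with the stated free RNA subtracted. With at most 10% mitochondrial UMIs, 1 member was higher along the tip score and 0 lower, by sign alone. After surgery 3 were then lower (crypt-labelled) and 2 higher (villus-labelled), and between fractions 0 were higher and 2 lower in LFD sham and 1 and 1 in HFD VSG. Of the wider list, 1 was lower (crypt-labelled) and 0 lower (villus-labelled) on diet, and 1 higher between fractions in HFD VSG and in HFD sham. With clusters alike, 2 members were lower after surgery (crypt-labelled) and 0 lower between LFD sham fractions. The wider list then had 0 lower on diet (villus-labelled), 1 higher in HFD VSG and 1 lower in HFD sham and in LFD sham. A threshold of 1 left 1 member higher on diet in each fraction, 0 lower after surgery (crypt-labelled), 0 lower between LFD sham fractions, and 1 higher and 2 lower in HFD VSG. The wider list then had 3 higher and 0 lower on diet (villus-labelled), 0 and 0 after surgery (crypt-labelled), 0 and 5 (villus-labelled), and between fractions 1 and 1 in LFD and HFD sham and 0 higher in HFD VSG. A mean of at least 200 UMIs left 0 members higher between LFD sham fractions and 1, 1 and 2 of the wider list higher in LFD sham, HFD sham and HFD VSG. With doublets kept, 2 members were higher between LFD sham fractions, and of the wider list 2 were lower on diet and 3 higher after surgery (villus-labelled). Means over cells gave 1 member higher between HFD sham fractions, and of the wider list 6 higher on diet and 2 lower after surgery (crypt-labelled) and 5 higher and 1 lower between HFD sham fractions. The wider list had 5 higher on diet (crypt-labelled) with the stated free RNA subtracted and 4 lower between LFD sham fractions with median-of-ratios scaling. Without mitochondrial genes in the totals it had 2 higher between HFD VSG fractions. After surgery (crypt-labelled), 2 of it were higher with at least 1500 genes or without mitochondrial totals, and 0 with doublets kept, stated free RNA, means over cells, median-of-ratios scaling or a threshold of 1. EEC-like and tuft-like values rest on few cells, and *Scarb1* and *Rbp7* in enterocyte-like cells on few UMIs.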
